A study of Mus musculus with 10 samples.

Results

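The cytosolic ribosomal protein genes were examined in whole adrenal RNA of 10 mice, 1 array per mouse. These genes were chosen by symbol, as the Rpl and Rps genes, the stalk genes Rplp0 to Rplp2 and Rpsa, without the ribosomal S6 kinases and without symbols marked as pseudogenes. Of 61 such symbols in the array annotation, 28 had a probe paired with that gene alone and holding values in the table used here, out of 19661 genes measured in all. They comprise 17 genes of the large subunit and 11 of the small subunit. Of the 28, 21 encode the standard protein and 7 are paralogues with their own gene (Rpl3l, Rpl7l1, Rpl10l, Rpl32l, Rpl39l, Rps4l and Rps27l), of which RefSeq classes Rps4l as a transcribed pseudogene. Each gene is represented by its brightest single-gene probe, and only Rps9 had a second.

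The 5 knock-out (KO) mice were Crem-/-, in which the gene of the transcription factor CREM, which responds to cAMP, is disrupted, and the 5 wild-type (WT) mice were of the same mixed strain, 129Pas x C57Bl/J. All animals were 8 weeks old, were left untreated and were sampled at 0 h of circadian time. The whole gland was taken, so cortex and medulla are measured together, and fewer cells of a type cannot be told apart from less RNA per cell. The labels give 4 batches and do not say which step was batched. Batch 1 holds KO 1, KO 2 and WT 1, batch 2 holds KO 3 and KO 4, batch 3 holds KO 5, WT 2, WT 3 and WT 4, and batch 4 holds WT 5. Values are log2 levels from robust multi-array averaging (RMA), which subtracts background, equalises the arrays' distributions and summarises the probes of a transcript. A deviation is the level of a gene on an array minus its own mean over the 10 arrays, and a difference is KO minus WT, both on the log2 scale. Levels of different genes are not set against each other, because each probe has its own brightness.

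Crem, the gene disrupted in the KO mice, was at 7.38, 7.97, 6.86, 6.84 and 7.77 on KO 1 to KO 5 and at 7.45, 7.23, 8.14, 7.62 and 7.27 on WT 1 to WT 5. The groups overlapped (difference -0.18, limma adjusted p = 1.00), so these levels do not check the labels, and where the probe lies relative to the disrupted part is not given. Arrays KO 2, KO 5 and WT 3 stood apart from the other 7. On the first principal component of all genes, which held 53.8% of the variance, they lay at 69.4, 61.01 and 60.7, WT 4 lay at 17.43, and the remaining 6 lay between -54.01 and -23.7. KO 1 stood apart on the second component, with a score of 81.41. Array medians lay between 7.17 and 7.25.

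Ribosomal proteins are the protein part of the cytosolic ribosome, which reads mRNA in its small subunit and joins amino acids in its large subunit. Cells need them in nearly equal amounts, and their mRNAs are among the most abundant in most tissues, the adrenal gland included. Most begin with a cytosine followed by a run of pyrimidines, the terminal oligopyrimidine or TOP motif, through which mTOR signalling and the RNA-binding protein Larp1 control their translation and stability. In the adrenal gland the hormone ACTH acts on the cortex through cAMP, and the factors Creb1 and Crem bind the cAMP response element, TGACGTCA.

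RefSeq promoter windows of 300 bases (250 before and 50 after the annotated start, build GRCm38.p6) matched 23 of the 28 genes. Rpl8, Rpl30, Rplp1, Rps4l and Rps14 were not matched. A cytosine at the annotated start followed by at least 4 more pyrimidines, read on the strand of the gene, was found in 5 of the 23 (21.7%), against 3.01% of all genes in the table. These 5 are shown because their start carries the motif that marks the group. Each window runs from 10 bases before the annotated start to 20 bases from it, 5′ to 3′, with the pyrimidine run in capitals. They lie at chr9:120571507-120571536 (plus strand, Rpl14), chr10:20208429-20208458 (plus, Rpl32l), chr7:141447641-141447670 (plus, Rplp2), chr7:118116128-118116157 (minus, Rps15a) and chr2:180257369-180257398 (plus, Rps21).
Rpl14: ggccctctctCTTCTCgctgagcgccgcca
Rpl32l: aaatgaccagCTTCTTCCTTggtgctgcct
Rplp2: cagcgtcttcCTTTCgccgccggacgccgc
Rps15a: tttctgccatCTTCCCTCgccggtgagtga
Rps21: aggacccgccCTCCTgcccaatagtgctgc
The run held 10 pyrimidines in Rpl32l, 8 in Rps15a, 6 in Rpl14 and 5 in both Rplp2 and Rps21. In the other 18 genes these letters were not at the annotated base, which says nothing about starts elsewhere.

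The full cAMP response element TGACGTCA, which reads the same on both strands, was found in the windows of 2 of the 23 genes (8.70%), against 2.03% of all genes. They are Rpl26 and Rps9, and their 250 bases before the start are shown because they hold the letters that factors of the Crem family bind. The last base of the element, in capitals, lies 127 bases before the start of Rpl26 (chr11:68901316-68901565, plus strand) and 50 bases before that of Rps9 (chr7:3703791-3704040, plus strand).
Rpl26: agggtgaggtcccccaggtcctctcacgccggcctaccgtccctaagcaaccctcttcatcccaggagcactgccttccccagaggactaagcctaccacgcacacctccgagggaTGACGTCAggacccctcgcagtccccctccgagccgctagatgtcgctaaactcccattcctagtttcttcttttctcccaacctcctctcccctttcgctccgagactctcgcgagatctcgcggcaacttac
Rps9: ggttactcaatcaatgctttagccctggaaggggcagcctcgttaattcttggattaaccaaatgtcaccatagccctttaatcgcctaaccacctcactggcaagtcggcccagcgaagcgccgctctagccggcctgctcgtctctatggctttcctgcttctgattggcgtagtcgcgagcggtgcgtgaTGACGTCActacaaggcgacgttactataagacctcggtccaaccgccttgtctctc
The shorter core TGACG, on either strand and overlapping the full element where that is present, was found in 9 of the 23 genes (39.1%), against 23.0% of all genes. These were Rpl4, Rpl23, Rpl26, Rpl34, Rplp0, Rplp2, Rps3, Rps9 and Rps27l. A match is a description of the letters and not evidence of binding.

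Most ribosomal protein genes rose and fell together from mouse to mouse. Averaged over the 28 genes, the deviation was highest on WT 1 (0.26), WT 5 (0.23) and KO 4 (0.17), and lowest on KO 5 (-0.29), KO 2 (-0.27) and WT 3 (-0.26). KO 3 and WT 2 lay at 0.10 and 0.09, and KO 1 and WT 4 at -0.0099 and -0.01. Both genotypes were thus found at the top and at the bottom of the order. The mean spanned 0.54 over the arrays. Single genes of the group had a median SD of 0.29 over the 10 arrays, beside 0.26 over all genes.

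**Figure D1:**
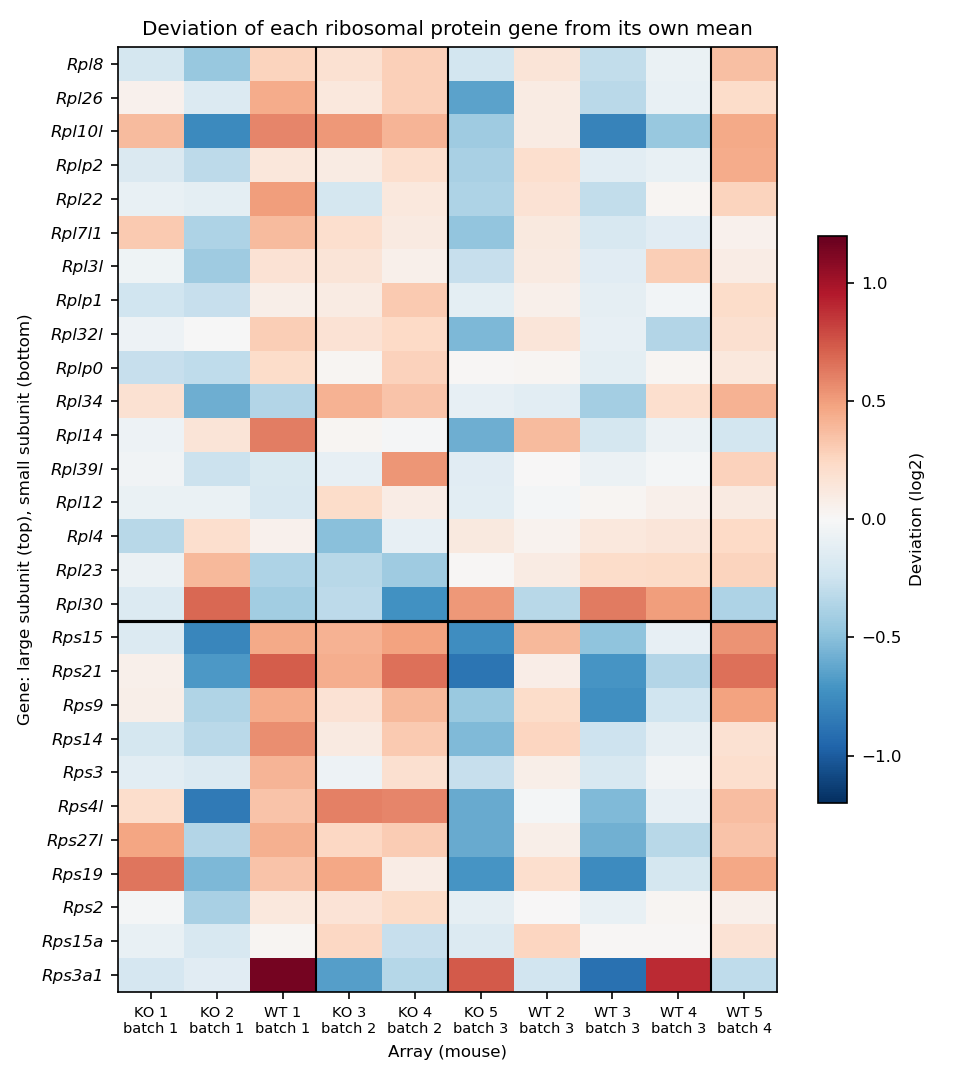
Heat map of the 28 ribosomal protein genes (rows, large subunit above the thick line and small subunit below it) on the 10 arrays (columns, ordered by batch). The colour is the deviation of a gene from its own mean over all arrays on the log2 scale, blue below and red above. Most rows are blue on KO 2, KO 5 and WT 3 and red on WT 1, KO 4 and WT 5, while Rpl30, at the foot of the large subunit, runs the other way and Rps3a1, in the last row, follows neither pattern.

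The 3 lowest arrays of a gene were exactly KO 2, KO 5 and WT 3 in 13 of the 28 genes (46.4%), against 18.1% of all genes. These were Rpl3l, Rpl7l1, Rpl8, Rpl26, Rps2, Rps3, Rps4l, Rps9, Rps14, Rps15, Rps19, Rps21 and Rps27l, of which 9 belong to the small subunit. Those arrays are the same 3 that stood apart on the first component of all genes, to which the ribosomal protein genes also contribute, and the part of RNA quality or tissue make-up in this was not tested. Rpl30 alone had them as its 3 highest arrays, as did 12.2% of all genes.

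Among the 378 pairs of ribosomal protein genes, 289 (76.5%) had a positive Pearson correlation over the 10 arrays, with a median r of 0.53. Set against the mean of the other 27 genes, 24 genes had a positive r and 4 a negative r, and 14 exceeded 0.80. Rps15 and Rps21 (0.96 each), Rps9 (0.94), Rpl8 (0.93) and Rpl26 (0.92) followed the others most closely. Rpl30 (-0.91), Rpl23 (-0.58), Rpl4 (-0.30) and Rps3a1 (-0.02) had the negative values. These correlations describe 10 arrays that share normalization and batches. The same values were not computed for all genes, so they do not show a trait particular to this group. The first principal component of all genes held 53.8% of the variance.

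**Figure D2:**
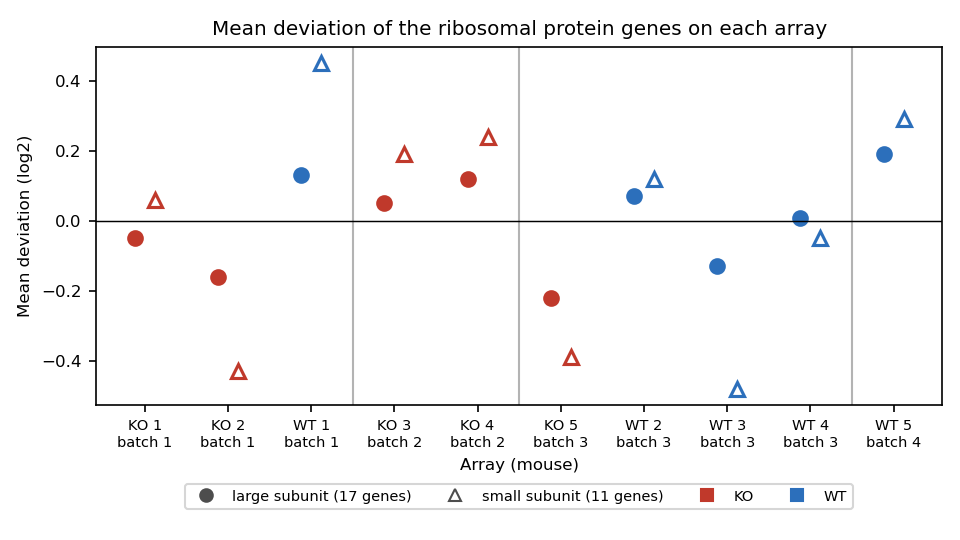
Mean deviation (log2) of the 17 large-subunit genes (filled circles) and the 11 small-subunit genes (open triangles) on each array, coloured by genotype and ordered by batch (grey lines). The small-subunit genes run from -0.48 on WT 3 to 0.45 on WT 1 and the large-subunit genes from -0.22 on KO 5 to 0.19 on WT 5, with KO and WT arrays on both sides of 0.

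The mean of the small-subunit genes varied over a wider range than that of the large-subunit genes, a difference that was not tested. Their mean deviation ran over 0.93, from -0.48 on WT 3 to 0.45 on WT 1, and that of the large subunit over 0.41, from -0.22 on KO 5 to 0.19 on WT 5. By label, the mean of large minus small was 0.01 ± 0.20 among the KO mice and -0.01 ± 0.24 among the WT mice (SD, n = 5 each). The difference of 0.03 was below the spread between mice. Within batches it was positive, 0.41 in batch 1, where KO 1 (-0.11) and KO 2 (0.28) both lay above WT 1 (-0.32), and 0.05 in batch 3, where KO 5 (0.17) lay between WT 3 (0.35) and both WT 2 (-0.05) and WT 4 (0.06). Rpl4, Rpl23 and Rpl30, whose deviations ran against those of the other genes, all belong to the large subunit.

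The genotype comparison asks whether ribosomal protein genes differ in the adrenal glands of mice without Crem. By label, the mean deviation of the 28 genes was -0.06 ± 0.21 among the KO mice and 0.06 ± 0.21 among the WT mice (SD, n = 5 each). The difference of -0.12 was smaller than the SD of either group. Within batches 1 and 3 it was -0.40 and -0.22. The large subunit differed by -0.11 and the small subunit by -0.13 over all arrays, by -0.24 and -0.64 within batch 1, and by -0.20 and -0.26 within batch 3.

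No ribosomal protein gene passed an adjusted p of 0.05 in limma (0 of 28), and no probe did among all 25664 tested (0%). At an unadjusted p under 0.05, 0 of the 28 were lower in KO and 0 were higher, where 2.50% of all probes were lower. The smallest unadjusted p of limma was 0.109, for Rpl4, with an adjusted p of 1.00. All 28 confidence intervals included 0, and they reached from 0.22 to 0.89 (median 0.39) to each side of the estimate, so smaller differences in single genes were not resolved with 5 mice a group. KO and WT levels overlapped in every one of the 28 genes, while 0.717% of all genes had groups that did not overlap.

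The median difference of the 28 genes was -0.12, and 23 of them (82.1%) were lower in KO, beside a median of -0.01 over all genes with 53.2% lower. It was -0.11 in the large subunit, where 13 of 17 were lower, and -0.16 in the small subunit, where 10 of 11 were lower. Rps27l (0.03) was the exception in the small subunit, and Rpl34 (0.11), Rpl10l (0.05), Rpl12 (0.01) and Rpl30 (0.0030) were those of the large subunit. Because the genes move together on each array, these counts are not independent of each other. Without KO 2, KO 5 and WT 3 the median of the 28 was -0.05, and without KO 1 and KO 3 it was -0.20. That of the small subunit rested on few arrays: it was -0.0014 without WT 1, -0.01 without KO 2, -0.03 without KO 5, and -0.01 without KO 2, KO 5 and WT 3.

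With batch as a fixed block in the fit, the difference rests on batches 1 and 3, because the other 2 hold a single genotype. Its KO arrays are KO 1, KO 2 and KO 5, each of which stood apart on the first or second principal component. KO 3 and KO 4 (mean deviations 0.10 and 0.17) do not enter it. The median difference was then -0.37 over the 28 genes and -0.06 over all genes. Of the 28, 25 (89.3%) were lower, beside 59.9% of all genes in that fit, and 10 of them (35.7%) were lower at an unadjusted p under 0.05, against 5.38% of all probes. These 10 were Rpl3l, Rpl14, Rpl22, Rpl26, Rpl32l, Rplp2, Rps3, Rps14, Rps15 and Rps21, and 0 were higher at that level. None passed the adjusted threshold: the smallest unadjusted p in limma was 0.00567, for Rps14, with an adjusted p of 0.58. Without KO 2 the count was 6 (3.87% of probes), so it moved with the arrays in the fit. Some omissions leave a single array of 1 genotype in the contrast, and for these only the median is given. Without WT 1, the single WT array of batch 1, the contrast was that of batch 3 and the median was -0.24. Without KO 5 it was that of batch 1, with a median of -0.41. Without KO 2, KO 5 and WT 3 it was KO 1 against WT 1 alone, with a median of -0.31. With batch as a random block, which also draws on batches 2 and 4, the median difference of the 28 genes was -0.17. Within batch 1 (KO 1 and KO 2 against WT 1) the median difference was -0.41, and within batch 3 (KO 5 against WT 2, WT 3 and WT 4) it was -0.24. The difference was negative in both batches for 20 genes (71.4%), against 45.6% of all genes, and positive in both for 2, Rpl30 and Rpl34.

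**Figure D3:**
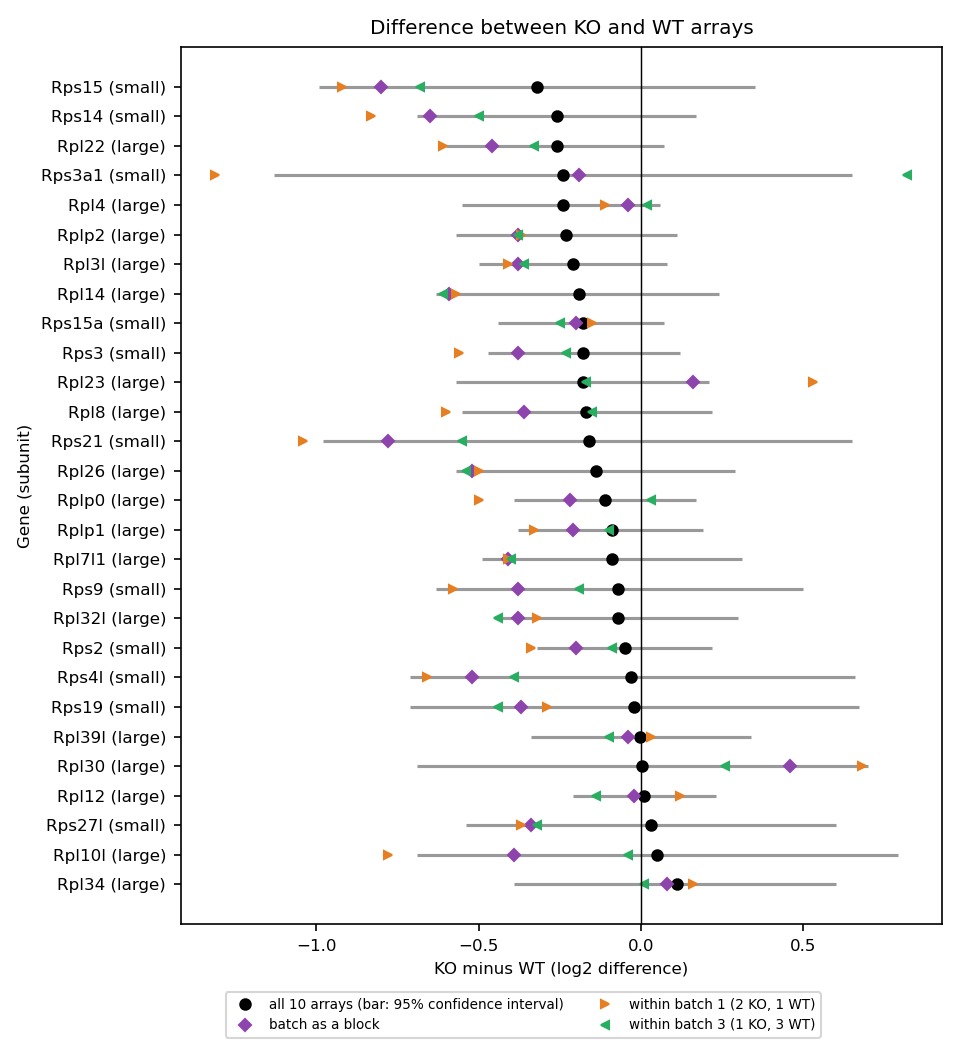
Difference between KO and WT in log2 units for each of the 28 genes, ordered by the estimate from all 10 arrays (black circles, bars are 95% confidence intervals of limma). Purple diamonds give the estimate with batch as a block, orange triangles that within batch 1 and green triangles that within batch 3. All black bars cross 0, and in most genes the batch estimates lie further to the left, with Rps21 at -1.04 and Rps3a1 at -1.31 within batch 1, and Rps3a1 at 0.82 within batch 3.

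Among the small-subunit proteins, Rps14 sits in the platform of the subunit near the exit of the mRNA, and its loss from a single copy underlies the anaemia of the human 5q- syndrome. Its levels were 12.57, 12.46, 12.89, 13.10 and 12.26 on KO 1 to KO 5 and 13.34, 13.04, 12.54, 12.68 and 12.97 on WT 1 to WT 5. WT 1 was the highest array and KO 5 the lowest, and the groups overlapped between 12.54 and 13.10. The difference was -0.26 (SE 0.19) over all arrays, -0.65 (SE 0.17) with the batch block, -0.83 within batch 1 and -0.50 within batch 3.

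Rps15, a protein of the head of the small subunit, had the most negative difference of the 28 genes. It was at 10.96, 10.34, 11.54, 11.61 and 10.38 on the KO arrays and at 11.58, 11.52, 10.64, 11.03 and 11.67 on the WT arrays. KO 2, KO 5 and WT 3 were low in both genotypes and the other KO arrays reached the WT range. The difference of -0.32 had a 95% interval from -0.99 to 0.35, and it was -0.80 (SE 0.26) with the batch block and -0.08 without KO 2, KO 5 and WT 3.

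Rps21, a small protein of the subunit body needed for its maturation, ran over 1.61 between its lowest and highest array. On KO 1 to KO 5 it was at 10.07, 9.32, 10.45, 10.67 and 9.13, and on WT 1 to WT 5 at 10.74, 10.09, 9.30, 9.66 and 10.67. KO 4, WT 1 and WT 5 were within 0.1 of each other at the top, and KO 2, KO 5 and WT 3 were lowest. The difference was -0.16 (SE 0.37) over all arrays, -1.04 within batch 1, -0.55 within batch 3, and 0.11 without KO 2, KO 5 and WT 3, so its sign depended on those arrays.

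Rps3, which lines the channel where mRNA enters, ranged from 11.98 on KO 5 to 12.67 on WT 1. Its KO levels were 12.13, 12.10, 12.20, 12.45 and 11.98 and its WT levels 12.67, 12.33, 12.07, 12.22 and 12.46. The ranges overlapped over most of their width, with a difference of -0.18 (SE 0.13) and of -0.38 (SE 0.14) with the batch block. Rps2, which lies beside Rps3 at the same channel, had a difference of -0.05 and an SD of 0.17 over the 10 arrays, the second smallest of the 28. Rps9, which carries the cAMP response element shown above, had differences of -0.07 with the probe used and -0.25 with its other probe, and the groups overlapped in both.

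Rps15a, of the small subunit, carries a pyrimidine run at its start. It was at 10.13, 10.03, 10.47, 9.94 and 10.06 on the KO arrays and at 10.24, 10.48, 10.23, 10.23 and 10.39 on the WT arrays. All KO arrays but KO 3 lay below all WT arrays, and the difference was -0.18 (SE 0.11), with -0.20 under the batch block, -0.15 within batch 1 and -0.25 within batch 3.

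Rps19 is the gene most often mutated in Diamond-Blackfan anaemia, an inherited failure of red cell production. The KO levels were 11.35, 10.17, 11.17, 10.79 and 10.003 and the WT levels 11.05, 10.91, 9.95, 10.49 and 11.17. High and low arrays occurred in both genotypes, the difference was -0.02 (SE 0.31), and it was -0.37 with the batch block.

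Rps3a1, which lies where initiation factors dock on the small subunit, varied more than any other of the 28 genes, with an SD of 0.69. On the KO arrays it was at 11.64, 11.71, 11.18, 11.50 and 12.58 and on the WT arrays at 12.99, 11.62, 10.95, 12.74 and 11.54. WT 1, WT 4 and KO 5 were its 3 highest arrays, which was so in no other gene of the group. Its difference was -1.31 within batch 1 and 0.82 within batch 3, with -0.24 (SE 0.40) over all arrays. Genes of this family have many near-identical processed copies in the genome, which can share probe sequence, so the origin of the signal of any single probe is uncertain.

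In the large subunit, Rplp0, Rplp1 and Rplp2 form the acidic stalk that recruits elongation factors. Rplp2 was at 7.48, 7.34, 7.75, 7.85 and 7.26 on the KO arrays and at 7.79, 7.85, 7.52, 7.56 and 8.10 on the WT arrays. WT 5 was highest and KO 5 lowest, and KO 3 and KO 4 lay within the WT range. Its difference was -0.23 (SE 0.15), and -0.37 and -0.38 within batches 1 and 3. The differences of Rplp0 and Rplp1 were -0.11 (SE 0.13) and -0.09 (SE 0.13), and both were highest on KO 4 and lowest on KO 2. With the batch block they were -0.22 and -0.21, within batch 1 -0.50 and -0.33, and within batch 3 0.03 and -0.10. Rpl12, which binds at the base of the stalk, was the least variable of the 28 genes, with an SD of 0.12, levels from 7.65 to 8.06 and a difference of 0.01.

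Rpl26, a protein at the rim of the exit tunnel that also binds the mRNA of the tumour suppressor p53, holds the full cAMP response element in its promoter. Its levels were 10.36, 10.14, 10.43, 10.59 and 9.66 on KO 1 to KO 5 and 10.75, 10.40, 9.98, 10.22 and 10.53 on WT 1 to WT 5. KO 5 was the lowest array and WT 1 the highest, and the groups overlapped. The difference was -0.14 (SE 0.19) over all arrays, -0.52 (SE 0.15) with the batch block, -0.50 within batch 1, -0.54 within batch 3 and -0.01 without KO 2, KO 5 and WT 3.

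Rpl14, whose start also carries a pyrimidine run, had KO levels of 9.13, 9.35, 9.22, 9.18 and 8.61 and WT levels of 9.81, 9.57, 8.98, 9.12 and 8.97. WT 1 and WT 2 were above all KO arrays, while the other WT arrays lay among them. Its difference was -0.19 (SE 0.20), and -0.59 (SE 0.17), -0.57 and -0.61 with the block and within batches 1 and 3.

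Rpl22 is not needed for translation in general and is best known for its part in T cell development. It was at 10.58, 10.55, 10.46, 10.80 and 10.30 in KO and at 11.17, 10.84, 10.38, 10.69 and 10.94 in WT. The upper 3 WT arrays were above all KO arrays and WT 3 was the second lowest of all. The difference was -0.26 (SE 0.15) over all arrays and -0.46 (SE 0.17) with the batch block. It was -0.61 within batch 1 and -0.33 within batch 3.

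Rpl8, a protein near the peptidyl transferase centre, followed the group closely with r = 0.93 and differed by -0.17 (SE 0.17). Rpl34 was highest on WT 5 and lowest on KO 2, with the most positive difference of the 28, 0.11 (SE 0.22).

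Rpl4, which reaches with a long loop into the exit tunnel, had the smallest p of the group over all arrays but not with batch in the fit. On the KO arrays it was at 12.67, 13.20, 12.50, 12.90 and 13.12, and on the WT arrays at 13.05, 13.04, 13.13, 13.14 and 13.24. The WT arrays lay close together (SD 0.08) and KO 1, KO 3 and KO 4 lay below them, while KO 2 and KO 5 lay among them. The difference was -0.24 (SE 0.14) over all arrays, -0.04 with the batch block, -0.11 within batch 1, 0.02 within batch 3 and -0.05 without KO 1 and KO 3. Without KO 2, KO 5 and WT 3, Rpl4 was the single gene of the 28 whose groups did not overlap, and 12.2% of all genes did not overlap among those 7 arrays.

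Rpl23, which lies on the face that meets the small subunit and binds the p53 regulator Mdm2, was at 10.14, 10.60, 9.88, 9.79 and 10.23 in KO and at 9.84, 10.31, 10.43, 10.44 and 10.48 in WT. WT 1 lay apart from the other 4 WT arrays. Its difference of -0.18 (SE 0.18) became 0.16 (SE 0.19) with the batch block, where WT 1 is the single WT array of batch 1.

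Rpl30, an RNA-binding protein at a bridge between the subunits, ran against the group. It was at 8.69, 9.54, 8.54, 8.12 and 9.37 on the KO arrays and at 8.43, 8.52, 9.47, 9.35 and 8.48 on the WT arrays. KO 2, KO 5 and WT 3, with WT 4, formed an upper set and the remaining 6 arrays a lower one, with both genotypes in each. The means of KO and WT were equal at 8.85, with a difference of 0.0030 (SE 0.31), and it was 0.46 (SE 0.33) with the batch block.

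**Figure D4:**
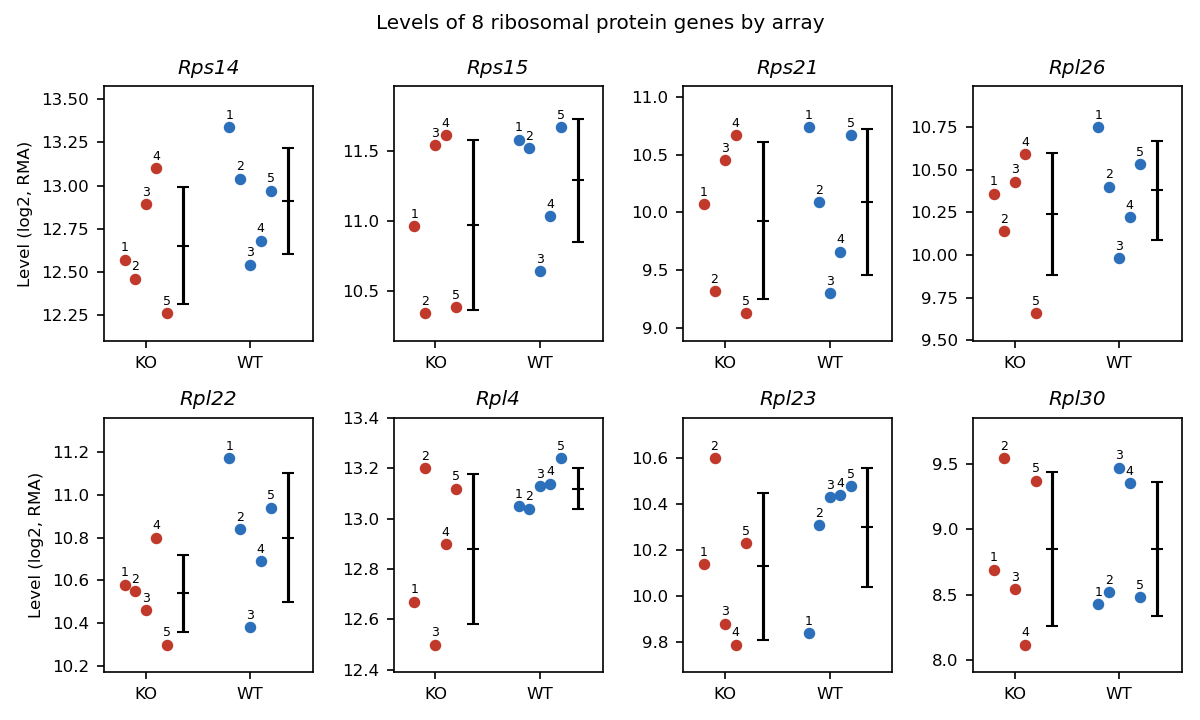
Levels (log2, RMA) of 8 ribosomal protein genes on the KO arrays (red) and WT arrays (blue), each point labelled with the number of its array, with the mean and SD of each group (n = 5) as bars. Each panel has its own axis, which does not start at 0. Rps14, Rps15, Rps21 and Rpl26 are low on KO 2, KO 5 and WT 3, Rpl30 is high on those arrays, and the groups overlap in all 8 genes.

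Of the paralogues, Rpl3l replaces Rpl3 in heart and skeletal muscle, and Rpl10l and Rpl39l stand in for their parent proteins in the testis. Rpl3l was at 6.14, 5.77, 6.35, 6.25 and 5.92 in KO and at 6.37, 6.30, 6.06, 6.49 and 6.28 in WT, with a difference of -0.21 (SE 0.13), -0.41 within batch 1 and -0.36 within batch 3. Its groups overlapped between 6.06 and 6.35. The differences of the others ran from -0.09 for Rpl7l1, a protein of precursors of the large subunit, to 0.05 for Rpl10l, and that of Rps27l, a target of p53, was 0.03. The median difference of the 7 paralogues was -0.03, and -0.38 with the batch block, beside -0.17 and -0.36 for the 21 standard genes. RMA gives no detection call, so low levels such as those of Rpl39l (4.79 to 5.58) cannot be told apart from background. The parent genes of the 7, and Rpsa, Rps6 and Rps27a, were not analysed here.

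The 10 genes outside the group whose levels most resembled its mean deviation over the 10 arrays were Rilpl2 (Pearson r = 0.988), Abt1 (0.984), Arrb1 (0.982), Arf5 (0.979), Rasl11b, Ddx49 and Thoc3 (0.977 each), Tmem9b (0.976), Uqcc2 (0.975) and Nip7 (0.974). They were picked from all genes for their likeness, and no test was made. Rilpl2 was at 7.81, 7.28, 8.08, 8.03 and 7.32 on the KO arrays and at 8.29, 8.10, 7.30, 7.74 and 8.22 on the WT arrays, low on KO 2, KO 5 and WT 3 like the ribosomal protein genes.

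Other genes of translation are given from fixed lists, and their differences from the ribosomal protein genes were not tested. Of 12 elongation factor genes listed, 11 were measured, and 0 passed the adjusted threshold in either direction. Their median difference was -0.14, with 9 lower in KO, and ran from -0.44 for Eef1a2, the elongation factor of muscle and neurons, to 0.06 for Eif5a2. Their mean deviation was lowest on KO 1 (-0.26) and close to 0 on KO 2 (0.02). Of 35 initiation factor genes, 29 were measured with 0 called, a median of -0.09, 22 lower, and a range from -0.34 for Eif4b to 0.49 for Eif5b. Their mean deviation on KO 2, KO 5 and WT 3 was 0.10, 0.10 and 0.13, where that of the ribosomal protein genes was -0.27, -0.29 and -0.26.

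Further mRNAs of the TOP class (14 of 21 measured) had a median difference of -0.13 with 11 lower, and the TOR, S6 kinase and Larp1 genes that act on them (17 of 20 measured) a median of -0.07 with 10 lower. The latter ran from -0.66 for Ddit4, a stress-induced inhibitor of TOR, to 0.37 for Eif4ebp1, which blocks the cap-binding protein. Ribosome biogenesis genes (35 of 35 measured) had a median of -0.19 with 29 lower, from -0.51 for Heatr1 to 0.52 for Dkc1. In each of these lists 0 genes were called. At an unadjusted p under 0.05 in limma, 6 of the 35 biogenesis genes were lower in KO, against 2.50% of all probes. In the TOP list 1 gene was lower at that level, in the TOR list 1, and among the ribosomal protein genes 0. With the batch block the medians were -0.16, -0.09 and -0.26. On KO 2, KO 5 and WT 3 the mean deviation of the TOP list was 0.05, 0.08 and 0.10. It was -0.09, -0.04 and 0.06 for the TOR list and 0.14, 0.10 and 0.15 for the biogenesis list. The ribosomal protein genes were low on those arrays (-0.27, -0.29 and -0.26).

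The 73 mitochondrial ribosomal protein genes, which build a separate ribosome, had a median difference of -0.01 with 42 lower, and the 36 proteasome genes a median of -0.06 with 27 lower, again with 0 called. With the batch block their medians were -0.27 and -0.15, beside -0.37 for the cytosolic group. Over the arrays the mitochondrial group had mean deviations of -0.26, -0.36 and -0.34 on KO 2, KO 5 and WT 3, where the cytosolic group was also low, and of 0.20 on WT 1. It was highest on KO 3 (0.32), where the cytosolic group was at 0.10. On KO 1 and WT 4 it was at 0.14 and -0.15, and the cytosolic group at -0.0099 and -0.01. The spans over the arrays were 0.68 for the mitochondrial ribosomal proteins, 0.44 for the proteasome and 0.54 for the cytosolic ribosomal proteins. The difference between the groups was not tested.

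Markers of the cell types a gland sample can hold varied between arrays, and some lists were low on KO 2, KO 5 and WT 3 along with the ribosomal protein genes while others were not. The mean level of 9 cortex markers lay between 12.31 and 12.89 on KO arrays and between 12.76 and 12.96 on WT arrays. The 8 chromaffin markers measured of 9 lay between 8.31 and 12.39 in KO and between 11.71 and 12.45 in WT, with the low value on KO 1. On KO 2, KO 5 and WT 3, where the ribosomal protein genes were low, the mean deviation of the cortex markers was 0.13, 0.09 and 0.10, and that of the chromaffin markers 0.34, -0.22 and 0.11.

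Markers of liver (8 of 9 measured) had a mean level of 12.82 on KO 1, between 7.08 and 9.40 on the other KO arrays and between 7.47 and 8.49 on the WT arrays. Adipocyte markers (9 of 10 measured) lay between 8.20 and 12.54 in KO, with KO 1 and KO 3 highest at 12.54 and 12.36, and between 8.84 and 10.68 in WT. Macrophage markers (8 of 8) lay between 9.23 and 10.43 in KO and between 9.80 and 10.67 in WT, with mean deviations of -0.87, -0.31 and -0.30 on KO 2, KO 5 and WT 3, their 3 lowest arrays. Lymphocyte (6 of 7 measured), endothelial (6 of 6), stroma (7 of 7) and skeletal muscle markers (7 of 7) spanned 0.79, 0.67, 0.54 and 0.54 over the arrays. The skeletal muscle markers (-0.25, -0.23 and -0.29) and the lymphocyte markers (-0.18, -0.30 and -0.21) were also lowest on KO 2, KO 5 and WT 3. On the same arrays the endothelial markers were at 0.15, -0.07 and -0.03, the stroma markers at -0.28, -0.14 and 0.15, the adipocyte markers at -1.12, -0.60 and 0.44, and the liver markers at -1.17, -1.26 and 0.15. RMA levels have no 0, so no marker can be called absent. The part of these cells in the differences of the ribosomal protein genes was not tested. The median difference of the ribosomal protein genes was -0.05 without KO 2, KO 5 and WT 3, and -0.20 without KO 1 and KO 3.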

How the data were processed

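Biotin-labelled whole adrenal RNA was hybridised to Affymetrix whole-transcript arrays. The deposited values are log2 levels per transcript cluster, for which the submitters' processing notes name RMA; its software, version, filters and any batch step are not stated there. Of 35557 rows, 25689 held values, and 25 controls were left out, leaving 25664 probes (20777 with 1 symbol, 232 with several, 4655 with none; 19584 of 19661 genes matched RefSeq by Entrez ID, 0 symbols changed). The arrays give no read depth, and their number limits the precision.

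Genotypes were tested in R 4.3.3 with limma 3.58.1 (lmFit, eBayes, two-sided, genotype only, 10 arrays, tested on simulated data), with Benjamini-Hochberg adjustment over all 25664 probes and a threshold of 0.05. Batch was added as a fixed or random block (consensus correlation 0.172). Lists are described by counts and medians. Probes that name a ribosomal protein gene among several genes (237, of which 6 hold values) were not used. Genes were named by rule: the 6 members per subunit with the smallest p in each fit, paralogues, stalk genes, disease genes, the largest and smallest SD, and the 10 most alike genes. Rpl8, Rpl30, Rpl34 and Rps9 and the extremes of other lists were named after their values were seen. Members and lists were chosen with earlier results of these data known. Figures were drawn with matplotlib 3.10.9.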

Additional observations from a re-analysis of the deposited data

Results flagged for a closer look

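In 62 groups of 5 arrays examined, 2 held an array far from the others of its genotype, and chance gives about 1 in 20 groups. Rpl23 was at 9.84 on WT 1, with the nearest WT array at 10.31, a gap of 0.742 of the range of the group. Rpl39l was at 5.58 on KO 4, with the nearest KO array at 5.01, a gap of 0.719 of the range.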

How the results depend on the processing

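No probe and no ribosomal protein gene passed the adjusted threshold under any of the alternatives run (0 in each; unadjusted p under 0.05 for 878 probes over all arrays and 1843 with the batch block). The median difference of the 28 genes was -0.12, and moved to -0.37 with batch as a fixed block and to -0.41 within batch 1. That of the large subunit moved from -0.11 to -0.36 and -0.37. That of the small subunit went from -0.16 to -0.38 with the fixed block, within its own spread between mice, and moved to -0.58 within batch 1. With batch as a random block the medians were -0.17 for the 28 genes, -0.16 for the large subunit and -0.19 for the small subunit. Leaving out each array in turn gave medians from -0.21 to -0.06 for the 28 genes, from -0.18 to -0.07 for the large subunit and from -0.25 to -0.0014 for the small subunit. The count of genes without overlap was 0, and 1 without KO 2, KO 5 and WT 3 (Rpl4) and 1 without KO 1 and KO 3 (Rps15a, where 2.39% of all genes did not overlap). An alternative added after the data were seen was the batch block with fewer arrays. The count of 10 genes at an unadjusted p under 0.05 in limma became 6 without KO 2 (3.87% of all probes) and 11 without WT 3 (10.4%). With all arrays 5.38% of probes were lower at that level. Without WT 1, without KO 5, and without KO 2, KO 5 and WT 3, a single array of 1 genotype was left in the contrast. The medians of the 28 genes were then -0.24, -0.41 and -0.31. The remaining alternatives (normalization, brighter probes, variance model, array weights, mean of probes) kept the sign of the medians. The cause was not tested. Single genes gave 580 of 613 values within the spread between replicates of the reported value, and 10 genes kept their sign throughout. No paired analysis was possible because the labels give each mouse its own number and no number shared between the genotypes. Signal over background is unknown, and background correction was not repeated.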
